A study of Mus musculus with 6 samples.

Results

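The genes described here are the C/EBP transcription factors and a set of acute-phase proteins, as measured in a mouse kidney cell line exposed to a vasopressin analog. They were chosen by gene symbol from a list of 9 (Cebpa, Cebpb, Cebpd, Cebpg, Lbp, Lcn2, C3, Saa3 and Hp), with the log2 changes of this same comparison already known. The values below are therefore a description of these genes, and the adjusted p-values only place each probe set among all those deposited. Of the 9 genes, 6 had probe sets annotated to them alone, with 9 probe sets among 28225 in all: 2 for Cebpb, 1 for Cebpd, 3 for Cebpg and 1 each for Lbp, Lcn2 and Saa3. The 3 other genes, Cebpa, C3 and Hp, were not analysed here.

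Total RNA came from mpkCCD clone 11 cells, a line of mouse cortical collecting duct cells, in a single clone. The treated cultures received 0.1 nM dDAVP (desmopressin, which activates the vasopressin V2 receptor) for 5 days, and the control cultures received vehicle for 5 days. Both were polarized layers on membrane supports whose resistance had reached 5 kohm per cm2 or more. Each group had 3 Affymetrix Mouse Genome 430 2.0 arrays, labelled biological replicates. Nothing in the labels says whether they were separate passages, so the p-values cover only the spread between these samples.

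C/EBP proteins are leucine zipper transcription factors that bind DNA as dimers. In the liver, inflammatory cytokines raise C/EBP-beta and C/EBP-delta, which together with STAT3 and NF-kB switch on the genes of the acute-phase proteins, secreted plasma proteins of early host defence. C/EBP-gamma lacks a strong activation domain and can pair with the other members. Collecting duct cells also secrete lipocalin-2 in urinary infection, and the Cebpb promoter is a textbook target of cAMP and CREB, the pathway that the V2 receptor feeds.

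Promoter windows of 6 of the 9 genes were taken from RefSeq (build GRCm38.p6): Cebpa, Cebpb, Cebpg, Lcn2, C3 and Saa3. Those of Cebpd, Lbp and Hp were not used here, so neither of the 2 genes called below is among them. The windows of Cebpb, Lcn2 and Saa3, measured genes whose upstream bases hold a cAMP or a C/EBP motif, are shown as the 250 bases before the start, 5′ to 3′ on the gene's strand. Capitals mark the short CRE motif TGACG in Cebpb (chr2:167688665-167688914, plus strand) and the C/EBP core TTGCNNAA in Lcn2 (chr2:32387740-32387989, minus strand) and Saa3 (chr7:46715677-46715926, minus strand), on either strand.
Cebpb: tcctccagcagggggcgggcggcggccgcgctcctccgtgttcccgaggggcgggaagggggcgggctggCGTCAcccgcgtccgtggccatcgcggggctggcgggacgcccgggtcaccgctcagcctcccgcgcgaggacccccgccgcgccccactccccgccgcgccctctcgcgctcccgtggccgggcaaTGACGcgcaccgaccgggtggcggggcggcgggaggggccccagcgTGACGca
Lcn2: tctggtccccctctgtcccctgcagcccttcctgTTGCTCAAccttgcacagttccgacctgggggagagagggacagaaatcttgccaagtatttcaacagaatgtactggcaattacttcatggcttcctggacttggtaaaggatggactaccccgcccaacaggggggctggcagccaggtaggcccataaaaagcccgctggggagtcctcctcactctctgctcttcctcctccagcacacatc
Saa3: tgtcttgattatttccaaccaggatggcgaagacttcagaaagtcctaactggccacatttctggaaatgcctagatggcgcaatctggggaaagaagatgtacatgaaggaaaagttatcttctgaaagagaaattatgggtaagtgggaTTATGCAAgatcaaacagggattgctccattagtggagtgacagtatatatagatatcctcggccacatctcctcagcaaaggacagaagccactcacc

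The Cebpb sequence held 3 short CRE motifs, whose first bases lay 180, 53 and 7 bases before the start. That motif was found in 17.8% of the 32851 RefSeq promoter windows of the same length, and in none of the other 5 gene windows examined. The C/EBP core was found once in Lcn2, once in Saa3 and once in C3, beginning 216, 99 and 45 bases before the start, and in 9.56% of all windows. It was not found in the windows of Cebpa, Cebpb or Cebpg. The full CRE TGACGTCA (1.55% of windows) and the STAT element TTCNNNGAA (7.02%) matched none of the 6. A full CRE contains the short motif on both strands, and no match of 1 motif overlapped another in these windows. These are letter matches and not measured binding.

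With dDAVP, Cebpd and Lbp rose, by 1.59-fold and 1.54-fold, and the other 7 probe sets did not pass the test. Thus 2 of the 9 probe sets were called at a limma adjusted p below 0.05, where the share among all probe sets was 0.216%. An unadjusted p below 0.05 was reached by 4 of the 9, against 7.98% of all probe sets. All 3 dDAVP arrays lay above all 3 vehicle arrays for the same number, 4 of 9, against 8.07% of all. The members' median log2 change was 0.10, and that of all probe sets 0.0039. All 9 changes had a positive sign, as had 51.7% of all. Because the genes were picked with these changes known, the shares say nothing further about them. The RNA of a whole culture cannot tell more transcript per cell from more cells that carry it. Of 9 measured principal cell markers, 3 (Aqp2, Fxyd4 and Avpr2) were also called higher with dDAVP by limma. The other 6 were not called, and 2 of them, Hsd11b2 (log2 change -0.041) and Gata3 (-0.075), had negative changes. The part of these markers in the members' changes was not tested.

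**Figure D1:**
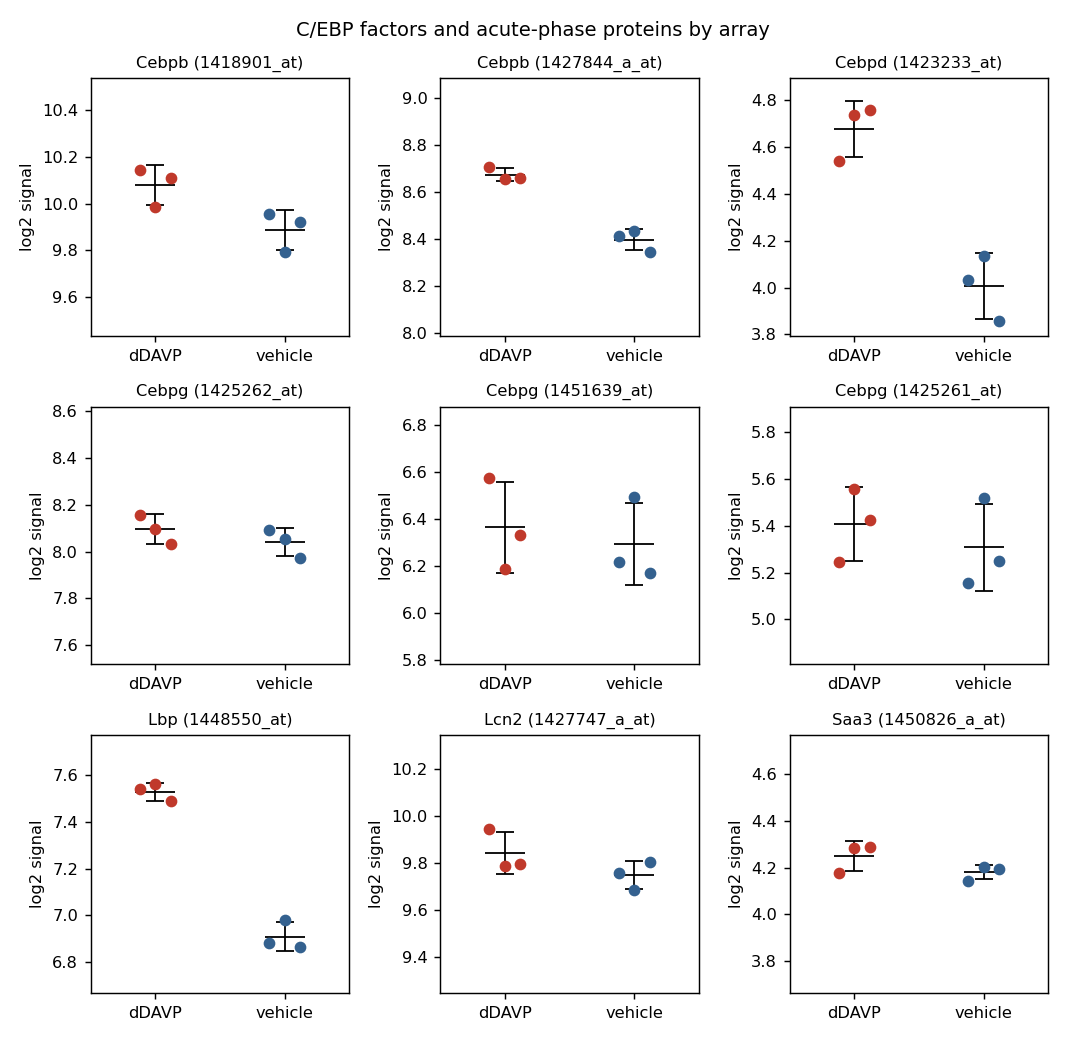
Each panel shows 1 probe set, with its log2 signal on 3 dDAVP arrays (red, left) and 3 vehicle arrays (blue, right). Black bars give the mean and SD of each group, and every panel spans the same range of log2 units. Cebpd and Lbp show the widest gap between the groups, Cebpb a narrow one in both panels, and Cebpg, Lcn2 and Saa3 overlap.

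Cebpd encodes C/EBP-delta, a factor that is quickly induced by inflammatory signals. Its probe set 1423233_at measured 4.54, 4.74 and 4.76 log2 units on dDAVP arrays 1, 2 and 3, against 4.03, 4.14 and 3.86 on vehicle arrays 1, 2 and 3. Every dDAVP array was above every vehicle array, and the lowest dDAVP value exceeded the highest vehicle value although both groups were dim. The means were 4.68 ± 0.12 with dDAVP and 4.01 ± 0.14 with vehicle (SD, n = 3 each), a log2 change of 0.67 ± 0.093 (SE, 95% interval 0.45 to 0.89). The limma adjusted p was 0.0499688, which placed Cebpd at rank 61 of the 61 probe sets called. The call ended without any 1 of the 6 arrays (log2 change 0.59 to 0.74, adjusted p 0.0782 to 0.218), with array medians centred (0.66, adjusted p = 0.0573) and with a robust prior (adjusted p = 0.0587), and over its 16 alternatives, which leave out the filter at the median level because Cebpd lies below it, the adjusted p ran from 0.00448 to 0.218. Its level lay above 3.56, a bound for dim signals set by 10 probe sets of olfactory receptors, taken as unexpressed (their 95th percentile).

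Cebpb encodes C/EBP-beta, made as activating and inhibitory isoforms from a single messenger. Probe set 1427844_a_at measured 8.71, 8.66 and 8.66 log2 units with dDAVP, against 8.41, 8.43 and 8.35 with vehicle. The groups did not overlap, and the change was 0.28 ± 0.058 (SE, 95% interval 0.14 to 0.41), with a limma adjusted p of 0.201. Probe set 1418901_at measured 10.14, 9.98 and 10.11 with dDAVP, against 9.95, 9.79 and 9.92 with vehicle. Here array 2 was the lowest of each group, and the lowest dDAVP value stood only just above the highest vehicle value. Its change was 0.19 ± 0.073 (SE, 95% interval 0.02 to 0.36, limma adjusted p = 0.560). Probe set 1427844_a_at was called under 3 of its 17 alternatives, over which its limma adjusted p ran from 0.0429 to 0.896: a trended prior (adjusted p = 0.0429), only probe sets above the median level (adjusted p = 0.0496) and scaling to the hybridisation controls (0.42, adjusted p = 0.0485). The replicate spread of this probe set was small: its residual SD was 0.038, against a median of 0.098 over all probe sets.

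Cebpg encodes C/EBP-gamma. On its brightest probe set, 1425262_at, the signals were 8.16, 8.10 and 8.03 log2 units with dDAVP, against 8.09, 8.06 and 7.97 with vehicle. Probe set 1451639_at gave 6.57, 6.19 and 6.33 with dDAVP, against 6.22, 6.49 and 6.17 with vehicle, and 1425261_at gave 5.24, 5.55 and 5.42 with dDAVP, against 5.16, 5.52 and 5.25 with vehicle. The groups overlapped on all 3. The log2 changes were 0.06 (95% interval -0.09 to 0.20), 0.07 (-0.21 to 0.35) and 0.10 (-0.16 to 0.36), with limma adjusted p-values of at least 0.902. The intervals leave room for a change in either direction. The brightest probe set bounds it most narrowly, below the whole interval of Cebpd, though the difference between the 2 genes was not tested. The sign of 1451639_at turned without dDAVP array 1 (-0.034).

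Among the acute-phase proteins, Lbp rose and Lcn2 and Saa3 did not pass. Lbp encodes the lipopolysaccharide-binding protein, which carries bacterial lipopolysaccharide to CD14 and so to the receptor TLR4. Its probe set 1448550_at measured 7.54, 7.56 and 7.49 log2 units on dDAVP arrays 1 to 3, against 6.88, 6.98 and 6.86 on vehicle arrays 1 to 3. The groups were far apart relative to their spread. The means were 7.53 ± 0.038 with dDAVP and 6.91 ± 0.063 with vehicle (SD, n = 3 each), a log2 change of 0.62 ± 0.061 (SE, 95% interval 0.48 to 0.76, limma adjusted p = 0.0106). In ratio terms that is 1.54-fold (95% interval 1.39 to 1.69), at rank 24 of 28225 by p-value. The call ended without vehicle array 1 or 3 and without dDAVP array 1 or 2 (adjusted p 0.0685 to 0.0818, with 0.00124 as the lowest over all its alternatives), while the change itself stayed at 0.60 to 0.66 in all 6 such fits.

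Lcn2 encodes lipocalin-2, also called NGAL, which binds the siderophores with which bacteria collect iron. Probe set 1427747_a_at measured 9.94, 9.79 and 9.79 log2 units with dDAVP, against 9.76, 9.68 and 9.80 with vehicle. The groups overlapped, since vehicle array 3 was above 2 of the dDAVP arrays. The change of 0.09 ± 0.069 (SE, limma adjusted p = 0.825) had a 95% interval of -0.07 to 0.25, which lies wholly below that of Lbp. The 95% interval in ratio terms was 0.955 to 1.19.

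Saa3 encodes a serum amyloid A protein that is made outside the liver in mice. Probe set 1450826_a_at measured 4.17, 4.28 and 4.29 log2 units with dDAVP, against 4.14, 4.20 and 4.19 with vehicle. The 2 groups overlapped within a range of less than 0.2 log2 units, for dDAVP array 1 was below 2 of the vehicle arrays. The change was 0.07 ± 0.061 (SE, 95% interval -0.07 to 0.21, limma adjusted p = 0.864). Saa3 was dim, with a mean level of 4.21 against 4.34 for Cebpd, and a change at such a level may be understated. Since serum amyloid A genes resemble each other, the signal may hold more than 1 of them, which was not tested.

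**Figure D2:**
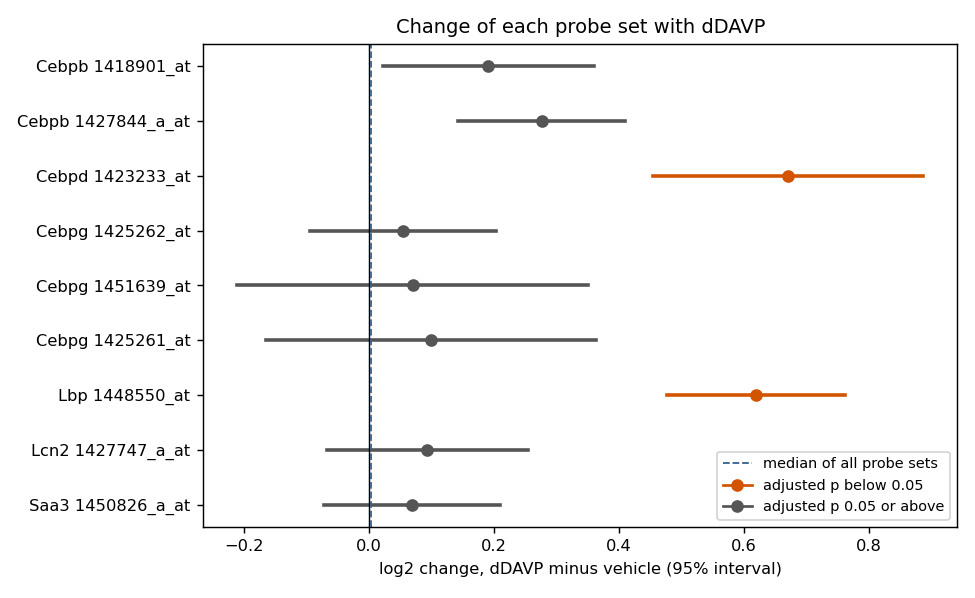
Points give the log2 change of each probe set, dDAVP minus vehicle, and lines its 95% interval from the moderated fit. Orange marks an adjusted p below 0.05, and the dashed line is the median of all probe sets at 0.0039. The intervals of Cebpd (0.45 to 0.89) and Lbp (0.48 to 0.76) overlap each other and lie to the right of those of Lcn2 and Saa3.

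How far the arrays are scaled matters for the small changes. The hybridisation controls, foreign transcripts added to the labelled sample, averaged 10.46 ± 0.066 log2 units on dDAVP arrays and 10.61 ± 0.080 on vehicle arrays (SD, n = 3 each, exact two-sided permutation p = 0.1, the smallest possible with these groups). Scaling to them moved the median of all probe sets to 0.15. On that scale Cebpd was at 0.82, Lbp at 0.77, Lcn2 at 0.24 and Saa3 at 0.22 in log2 change, so that Lcn2 and Saa3 stood within 0.1 of that median. The poly-A controls, added before labelling, differed less, at 7.92 ± 0.027 with dDAVP and 7.90 ± 0.10 with vehicle (exact p = 0.8). Scaled to them, Cebpd (0.65, limma adjusted p = 0.0336) and Lbp (0.60, limma adjusted p = 0.0256) were both called.

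**Figure D3:**
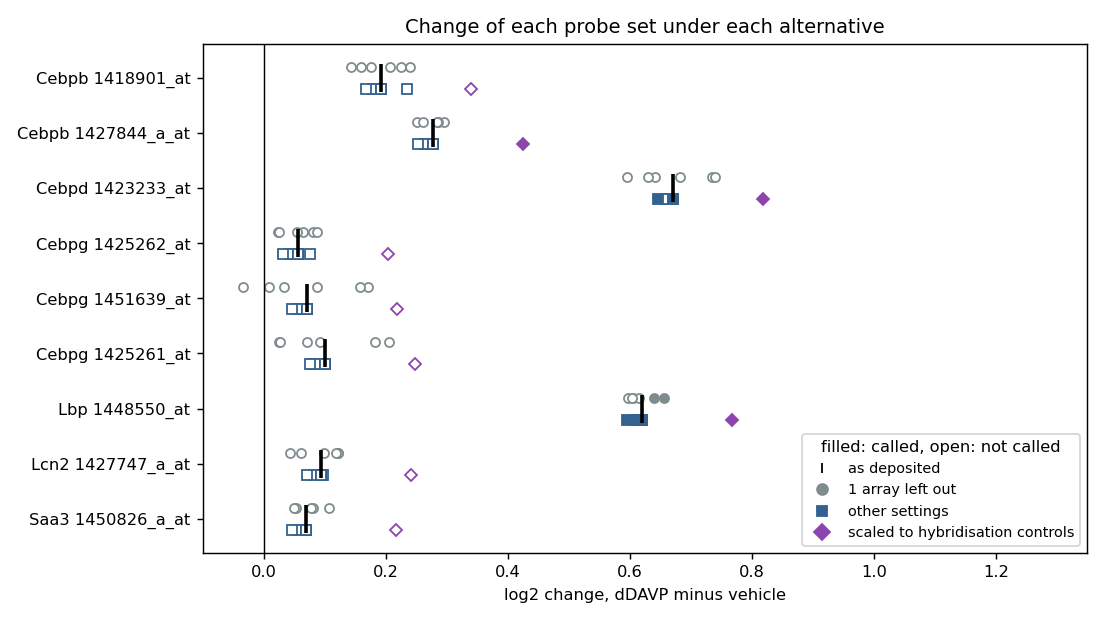
The horizontal axis is the log2 change of each probe set, dDAVP minus vehicle. Black bars show the deposited values, grey circles the fits without 1 array, blue squares other settings and purple diamonds the scaling to hybridisation controls, with filled symbols for calls. The lowest change was 0.59 for Cebpd and 0.595 for Lbp, although the open symbols show fits in which the call ended.

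Genes around the members were taken from 6 lists, of which 83 of 172 genes were measured. None of the 83 was called by limma (0 genes, of which 12 had an unadjusted p below 0.05, 8 of these positive), where 0.291% of all genes were called by their brightest probe set and 7.80% had an unadjusted p below 0.05. The median log2 change was 0.04 over the 83 and 0.01 over all genes. The 3 genes with the highest signal in each list are given below by the brightest probe set.

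Of the C/EBP relatives and dimer partners, 11 of 15 were measured, with a median change of 0.06, 1 at an unadjusted p below 0.05 and 0 called by limma. Trib3, a pseudokinase of the stress response, measured 8.62 ± 0.028 log2 units with dDAVP and 8.43 ± 0.020 with vehicle (SD, n = 3 each). Its change of 0.19 had a limma adjusted p of 0.404. The stress factor Atf4, which can pair with C/EBP proteins, was at 11.84 ± 0.017 with dDAVP and 11.78 ± 0.069 with vehicle, and the leucine zipper factor Tef at 8.72 ± 0.043 with dDAVP and 8.67 ± 0.013 with vehicle. Neither passed (limma adjusted p = 0.866 and 0.888).

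Of the other acute-phase proteins, 11 of 35 were measured, with a median change of 0.08. Of these, 3 had an unadjusted p below 0.05 (2 of them positive) and 0 were called by limma. The metallothioneins, small metal-binding proteins, measured 11.69 ± 0.064 with dDAVP and 11.47 ± 0.10 with vehicle for Mt2, and 12.77 ± 0.012 with dDAVP and 12.60 ± 0.095 with vehicle for Mt1 (SD, n = 3 each). The dDAVP arrays were above all vehicle arrays for both, but neither passed (limma adjusted p = 0.462 and 0.573). Fn1, the matrix protein fibronectin, was at 11.38 ± 0.11 with dDAVP and 11.25 ± 0.13 with vehicle, and the groups overlapped. As many as 5 of the 11, among them albumin, transthyretin and hepcidin (Alb, Ttr and Hamp), lay below the olfactory receptor level. Alb was the gene with a negative change (-0.37) among the 3 at an unadjusted p below 0.05.

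Of the complement genes, 10 of 33 were measured, with a median change of 0.06, 1 at an unadjusted p below 0.05 and 0 called by limma. Clu, which encodes the secreted chaperone clusterin, an inhibitor of the terminal complement complex, measured 10.45, 10.43 and 10.49 log2 units with dDAVP, against 10.08, 10.17 and 10.14 with vehicle. The groups did not overlap on any of its 4 probe sets, whose changes ran from 0.29 to 0.37. The brightest changed by 0.33 ± 0.057 (SE, limma adjusted p = 0.111) and passed with a trended prior (adjusted p = 0.00534), among brighter probe sets only (0.0219) and after scaling to hybridisation controls (0.0386). The membrane inhibitor Cd59a was at 8.37 ± 0.0045 with dDAVP and 8.25 ± 0.050 with vehicle, and Cr1l, a regulator that inactivates C3 products on cell surfaces, at 8.62 ± 0.073 with dDAVP and 8.56 ± 0.087 with vehicle. Neither passed, the lower limma adjusted p being 0.693.

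Of the receptors through which the secreted members act or are taken up, 11 of 20 were measured, with a median change of 0.04, 1 at an unadjusted p below 0.05 and 0 called by limma. Cd14, the receptor to which Lbp hands lipopolysaccharide, was at 8.25 ± 0.076 log2 units with dDAVP and 8.16 ± 0.061 with vehicle (SD, n = 3 each, limma adjusted p = 0.827). Tlr4 was at 6.17 ± 0.15 with dDAVP and 6.09 ± 0.11 with vehicle, and its co-receptor Ly96 at 5.53 ± 0.15 with dDAVP and 5.40 ± 0.088 with vehicle (SD, n = 3 each). Tlr2, a receptor for bacterial lipoproteins and the gene of this list with the unadjusted p below 0.05, measured 5.49, 5.23 and 5.44 with dDAVP, against 5.14, 5.04 and 5.14 with vehicle. Every dDAVP array was above every vehicle array, but its change of 0.28 ± 0.081 (SE) did not pass (limma adjusted p = 0.404). Tlr4, Ly96 and Tlr2 were chosen after their values were seen. Lrp2, the endocytic receptor megalin that takes up lipocalin-2, was at 8.25 ± 0.069 with dDAVP and 8.35 ± 0.10 with vehicle, and the Wnt co-receptor Lrp6 at 9.03 ± 0.063 with dDAVP and 8.99 ± 0.036 with vehicle. The groups overlapped for Cd14, Tlr4, Ly96, Lrp2 and Lrp6.

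Of the cytokine signals upstream of the acute-phase response, 28 of 40 were measured, with a median change of 0.0036, 4 at an unadjusted p below 0.05 (2 of them positive) and 0 called by limma. Nfkbia, the NF-kB inhibitor and itself an NF-kB target, measured 10.93 ± 0.13 with dDAVP and 10.83 ± 0.059 with vehicle (SD, n = 3 each). The NF-kB subunit Rela was at 10.84 ± 0.074 with dDAVP and 10.87 ± 0.067 with vehicle, and the phosphatase Ptpn11 at 10.46 ± 0.036 with dDAVP and 10.41 ± 0.047 with vehicle. All 3 overlapped between the groups. Nfkbiz, a nuclear cofactor of NF-kB that acts on the Lcn2 gene, is named here after its values were seen. The brightest of its 3 probe sets measured 8.60, 8.35 and 8.47 with dDAVP, against 8.09, 7.89 and 8.19 with vehicle. Its change of 0.42 ± 0.098 (SE) missed the threshold (limma adjusted p = 0.271). Also at an unadjusted p below 0.05 were Lif (log2 change 0.22), Il1rap (-0.26) and Nr3c1 (-0.17), likewise named after their values were seen.

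Of the iron and innate defence genes, 12 of 29 were measured, with a median change of -0.02, 2 at an unadjusted p below 0.05 (1 of them positive) and 0 called by limma. Muc1, a mucin of the apical membrane, measured 9.30, 9.25 and 9.18 log2 units with dDAVP, against 8.88, 8.94 and 8.88 with vehicle. Its change of 0.35 ± 0.060 (SE) had a limma adjusted p of 0.111, and it was called with a trended prior (adjusted p = 0.00980), among brighter probe sets only (0.0221) and after scaling to hybridisation controls (0.0258). The ferritin heavy chain Fth1 was at 12.50 ± 0.040 with dDAVP and 12.43 ± 0.059 with vehicle, and the transferrin receptor Tfrc at 10.80 ± 0.053 with dDAVP and 10.86 ± 0.11 with vehicle, with overlapping groups for both. The negative gene at an unadjusted p below 0.05 was Ptgds, named here after its values were seen. On its brightest probe set every dDAVP array was below every vehicle array, with a change of -0.27 ± 0.062 (SE, limma adjusted p = 0.259).

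**Figure D4:**
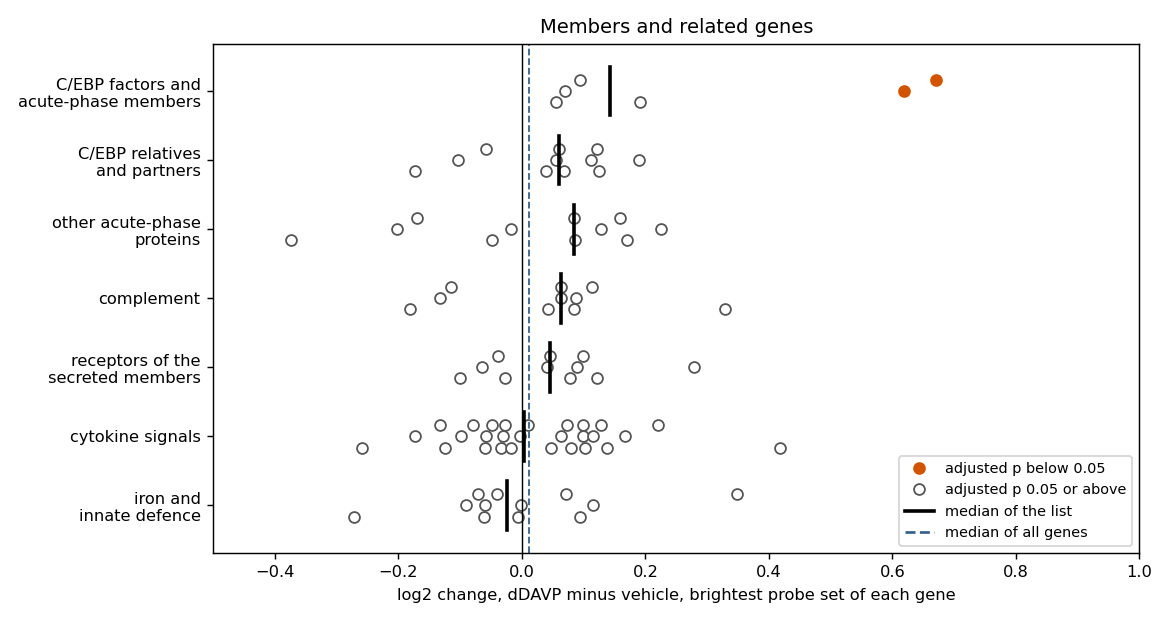
Each circle is the log2 change of 1 gene, dDAVP minus vehicle, on its brightest probe set, in rows for the members and for the 6 lists. Black bars are list medians and the dashed line the median of all genes at 0.01. The 2 filled circles are Cebpd and Lbp, and no gene of the 6 lists lies as far to the right, the highest being Nfkbiz at 0.42.

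The likeness of other genes to the members was taken as Pearson's r over the 6 arrays, among 8018 genes above the median level, as a description with no p. For Cebpb on its brightest probe set the nearest were Pmepa1 (0.982), Spag1 (0.979) and Tnfaip2 (0.979). For Lcn2 they were Rsrp1 (0.997), Srp19 (0.989) and Nagk (0.987). With so few arrays, 97 genes for Cebpb and 84 for Lcn2 had an r above 0.9. An r over all 6 arrays mixes the difference between the groups with the spread within them.

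Aqp2, the water channel that vasopressin regulates, rose 17.8-fold (10.85 ± 0.072 log2 units with dDAVP and 6.696 ± 0.042 with vehicle, SD, n = 3 each, limma adjusted p = 1.66e-07). Of the principal cell markers 9 of 11 were measured, none of them below the olfactory receptor level (0), and 7 of the 9 changes were positive, with a median of 0.23. Besides Aqp2, limma called Fxyd4, a regulator of the sodium pump (9.57 ± 0.080 with dDAVP and 8.89 ± 0.070 with vehicle, 1.60-fold, adjusted p = 0.0116), and Avpr2, the V2 receptor (9.25 ± 0.053 with dDAVP and 8.73 ± 0.072 with vehicle, 1.44-fold, adjusted p = 0.0271). The change of Fxyd4, 0.68 on the log2 scale, was of about the size of those of Cebpd and Lbp. Of the intercalated cell markers 2 of 8 were measured. Atp6v1b1, a proton pump subunit, was at 7.48 ± 0.076 with dDAVP and 7.15 ± 0.024 with vehicle (limma adjusted p = 0.153). Aqp6 had a change of -0.082 on its brightest probe set. Over its 4 probe sets the changes ran from -0.20 to 0.18, so no direction is given for it.

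Macrophages and hepatocytes make several of the members in the body. Macrophage markers (5 of 8 measured) summed on the linear scale to 677 to 746 with dDAVP and 724 to 807 with vehicle, most of it from Csf1r, whose log2 change was -0.13 (limma adjusted p = 0.728). The other 4 had positive changes and summed to 77.5 to 86.2 with dDAVP and 68.4 to 76.2 with vehicle, ranges that did not overlap. The changes were 0.20 for Cd68 (5.65 ± 0.12 with dDAVP and 5.46 ± 0.081 with vehicle), 0.10 for Adgre1, 0.22 for Ptprc and 0.12 for Mrc1. Ptprc and Mrc1 lay below the olfactory receptor level of 3.56, and Adgre1 (mean level 3.57) only just above it. Of the 5, 0 were called by limma and 1, Cd68, had an unadjusted p below 0.05. Both measured hepatocyte markers, Alb and Ttr (2 of 8), were below that level and summed to 16.9 to 18.5 with dDAVP and 19.3 to 21.9 with vehicle. Whether such cells had a part in the members' changes was not tested. Neutrophil markers were not analysed here.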

How the data were processed

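RNA was measured on Affymetrix Mouse Genome 430 2.0 arrays, 1 per sample, from 3 dDAVP and 3 vehicle cultures. The authors deposited log2 signals, 1 per probe set. Per the submitters' processing notes, MAS5, RMA and Affymetrix Expression Console 1.1 were used, with no role or order. The values ran from 2.15 to 14.1 with array medians within 0.040 of each other, and were taken as normalized. Folds of dim probe sets may be understated by such summaries. The number of arrays limits the precision.

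Of 28225 deposited probe sets other than 62 controls, 23097 carried 1 gene symbol in the platform annotation, covering 12364 genes. The deposited probe sets are a part of those of the array, and how they were selected is not given. Groups were compared with limma 3.58.1 (R 4.3.3; lmFit and eBayes, no covariates), with Benjamini-Hochberg adjustment over all 28225 and a threshold of 0.05. Intervals are those of the moderated fit at 95%. A gene on a list was represented by its brightest probe set over the 6 arrays. The code was tested on simulated data. Genes named in the text were all members, Aqp2, the 3 genes with the highest level in each of 6 lists and any called list gene, and the 3 genes most like Cebpb and Lcn2. Tlr2, Tlr4, Ly96, Nfkbiz, Lif, Il1rap, Nr3c1, Ptgds, Hamp, Alb and Ttr were named after their values were seen. So were the cell type markers other than Aqp2. Motifs were searched on both strands in RefSeq windows with those sequences in view. The members, lists, tests and alternatives were chosen with earlier results of these data known. The 17 alternatives were 4 scalings, 2 filters on dim probe sets, 2 priors, the replicate number as a block, 2 thresholds and leaving out each of 6 arrays. The members' probe sets were also averaged by gene. Figures were drawn with matplotlib 3.10.9.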

Additional observations from a re-analysis of the deposited data

How the results depend on the processing

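Of the 61 probe sets called, the number moved to 282 with scaling to hybridisation controls, 95 after dropping probe sets below the median level, 146 with a trended prior, 23 at a threshold of 0.01, and 22 to 46 when 1 array was left out. Scaled to hybridisation controls, 97.5% of calls were higher with dDAVP, against 86.9% as deposited. Of the members 2 were called as deposited, 3 with scaling to hybridisation controls or a trended prior (Cebpd, Lbp and Cebpb 1427844_a_at), 2 with the filter at the median level (Lbp and Cebpb 1427844_a_at, since Cebpd lies below that level and was not tested there), 1 with array medians centred or a robust prior, 0 at 0.01, and 0 to 1 when 1 array was left out (limma, with 3 to 4 of 9 at an unadjusted p below 0.05 in those 6 fits). List genes called by limma were 0 as deposited, 3 with scaling to hybridisation controls (Nfkbiz, Muc1 and Clu), and 2 with the filter at the median level or a trended prior (Muc1 and Clu both times). The log2 change lay between 0.59 and 0.82 for Cebpd over its 16 alternatives and between 0.60 and 0.77 for Lbp over its 17. A single sign turned: Cebpg 1451639_at was at -0.034 without dDAVP array 1 and at up to 0.17 without another array. The cause of these shifts was not tested, beyond the smaller number of arrays or probe sets in some of the fits.

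With the replicate number as a block, 24 probe sets and 0 members were called by limma (4 of 9 members at an unadjusted p below 0.05), with Lbp at an adjusted p of 0.0565 and Cebpd at 0.157. Deviations from the group means correlated by 0.20, 0.05 and -0.05 for arrays numbered 1, 2 and 3, and by -0.21 to 0.17 for arrays of unlike number. The numbers were therefore not taken to pair the cultures.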
